A study of Mus musculus with 9 samples.

Results

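The genes described here are 9 genes whose RNA or protein is used to recognise monocytes and macrophages: F13a1, Emr1, Cd14, Ly86, Ms4a6c, Fcgr1, Cd68, Mpeg1 and Klf4. They were chosen by name, as the rows of the deposited expression table that carry these symbols, and make up 9 of the 16537 genes (11 of 21388 transcripts) in that table. The samples were bone marrow cells of the inbred mouse strain FVB/NJ, and each of 3 groups was sequenced as 3 RNA libraries. The first group held hematopoietic progenitor cells (HPC), immature cells that form blood, from wild-type mice at postnatal day 42. Both other groups held leukemic progenitors (LP) from mice of the PML-RAR genotype, at a stage labelled early phase or median phase. PML-RAR is the fusion of the promyelocytic leukemia protein with retinoic acid receptor alpha, the defining lesion of acute promyelocytic leukemia. Neither the labels nor the design text give the promoter that drives the fusion, the markers used for sorting or the age of the LP mice in days. Genotype, age and the mix of sorted cells therefore cannot be told apart in either comparison with HPC.

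Monocytes arise in the bone marrow from progenitors shared with neutrophils, and mature into macrophages once they enter tissues. The lineage is set up by transcription factors such as PU.1, IRF8 and KLF4, and its cells carry receptors for bacterial lipopolysaccharide and for antibodies, together with a large lysosomal compartment that digests what they engulf. Acute promyelocytic leukemia is a disease of the neighbouring branch, in which cells stop at the promyelocyte stage of neutrophil development.

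Depth was 20.6 to 28.4 M (mega) fragments per library, recovered from the step between low values, against deposited totals of 21.9 to 25.8 M estimated counts. Levels are given in counts per 1 M counts (CPM) with TMM scaling, as mean ± SD of n = 3 libraries. Changes are log2 differences with their standard error (SE) from edgeR's quasi-likelihood test, with p-values adjusted by the Benjamini-Hochberg method over the 12837 genes tested, and a gene is called at an adjusted p under 0.05. Whether libraries of the same group stem from different animals is not stated in the labels, and p-values then cover only the spread among these libraries, which may be technical. The difference between long and short transcripts was taken from each library's deviation from the mean of its own group. It ran from -0.31 in HPC 3 to 0.17 on the log2 scale, with HPC 3 apart from the rest. It does not compare HPC with LP. Cd34, the sialomucin of stem and progenitor cells, had means of 272 CPM in HPC, 3.49 for early LP and 1.43 for median LP, while Kit, the stem cell factor receptor, had 437, 251 and 247 CPM.

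Against HPC, early LP had higher RNA of 5 of the 9 genes (F13a1, Emr1, Cd68, Cd14 and Mpeg1) and lower RNA of 2 (Ly86 and Ms4a6c), while Klf4 and Fcgr1 were not called. Of all genes tested in early LP, 73.2% were called, 35.3% as higher and 37.9% as lower, so a called gene is the usual case in this comparison. The median log2 difference was 0.97 over the 9 genes, between Mpeg1 (0.84) and Cd14 (1.42), and -0.04 over all genes. In median LP the same comparison called 6 genes higher and 2 lower, against 36% and 37.7% of all genes (73.8% in either direction). The sixth was Fcgr1, which was close to absent, passed the filter only through LP libraries and was not called when any of 5 single libraries was left out, so that 5 to 6 genes were higher over the libraries left out. The median there was 1.48, between Mpeg1 (1.27) and Cd14 (1.96), and -0.04 over all genes. In both comparisons the median is the value of Fcgr1 itself, which ran from 0.64 to 1.31 in early LP and from 1.01 to 1.87 in median LP with a library left out. In each of these comparisons the groups did not overlap for 7 of the 9 genes, against 74.7% of all genes for early LP and 75.7% for median LP. Both comparisons use the same 3 HPC libraries. In bulk RNA, fewer cells of a type and less RNA per cell cannot be told apart.

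**Figure D1:**
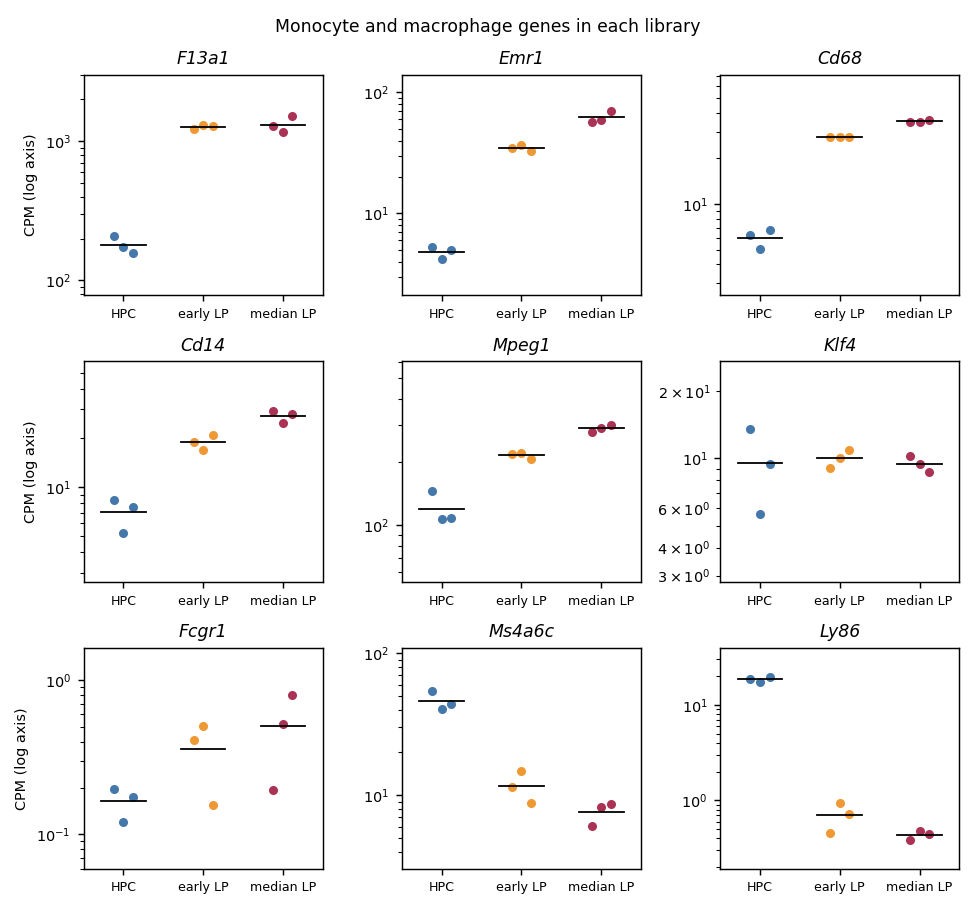
Level of each of the 9 genes in every library, in TMM-scaled CPM on log axes, with points for single libraries grouped as HPC, early LP and median LP and a line at each group's mean. F13a1, Emr1, Cd68, Cd14 and Mpeg1 lie higher in every LP library than in every HPC library, Ly86 and Ms4a6c lie lower, and the groups of Klf4 and Fcgr1 overlap.

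F13a1 encodes the A subunit of coagulation factor XIII, the transglutaminase that cross-links fibrin, which monocytes and megakaryocytes make. It lies on the minus strand of chromosome 13 (mm10, 36867178 to 37050244) in 15 exons. Its level was 207, 173 and 157 CPM in the HPC libraries, 1235, 1302 and 1282 in early LP and 1282, 1170 and 1509.7 in median LP. Every LP library stood well above every HPC library. The mean of 179 ± 25.6 CPM in HPC compares with 1273 ± 34.6 in early LP, a log2 difference of 2.83 (SE 0.12, 7.11-fold, 95% interval 5.93 to 8.51, adjusted p = 1.05e-09). The mean in median LP was 1321 ± 173 CPM, a difference from HPC of 2.88 (SE 0.12, adjusted p = 8.51e-10). The longer of its 2 transcripts carried 96.6 to 98.6% of its FPKM in HPC and at least 98.8% in every LP library. F13a1 alone made up 43.9 to 48.2% of the summed CPM of the 9 genes in HPC, 79.4 to 80.6% in early LP and 73.2 to 76.9% in median LP. These shares are not corrected for transcript length, and long transcripts such as that of F13a1 weigh more in them. Megakaryocyte markers, whose cells also make factor XIII, went the other way: their summed CPM ran from 140.1 to 176 over the HPC libraries, from 8.36 to 11.3 over early LP and from 7.17 to 9.79 over median LP, and 7 of the 8 tested were lower in each comparison with HPC. Of the 9 markers, Gp6 was at 0 in all early LP libraries. The part of megakaryocytes in the level of F13a1 was not tested.

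Of the other transglutaminases tested, 1 fell and 1 rose. Of the 10 genes of the transglutaminase and fibrin stabilization list, 4 are in the table and 2 were tested. Tgm2, tissue transglutaminase, fell from 11.4 CPM in HPC to 0.294 in early LP and 0.513 in median LP (log2 differences of -5.24, SE 0.31, and -4.45, SE 0.28). Tgm1, the transglutaminase of keratinocytes, had 2.19, 3.64 and 3.09 CPM, differences of 0.73 and 0.49 that were both called. F13b, the carrier subunit of factor XIII, is among the listed genes that the table does not hold, so it could not be analysed.

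Emr1, now named Adgre1, encodes the adhesion G protein-coupled receptor known as the F4/80 antigen, a classical marker of mouse macrophages. Its 22 exons lie on the plus strand of chromosome 17 (57358686 to 57483529). The HPC libraries had 5.30, 4.23 and 4.96 CPM, the early LP libraries 34.9, 37.0 and 32.5, and the median LP libraries 57.1, 59.6 and 70.3. The groups form steps with no overlap, HPC lowest and median LP highest. Emr1 was higher in early LP by 2.85 (SE 0.11, 7.21-fold, 95% interval 6.07 to 8.56, adjusted p = 6.36e-10) and in median LP by 3.69 (SE 0.11, 12.9-fold, 10.9 to 15.3, adjusted p = 6.75e-11), the largest rise of the 9 genes in median LP and close to that of F13a1 in early LP.

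Cd68 encodes macrosialin, a heavily glycosylated protein of late endosomes and lysosomes related to the LAMP family, and lies on the minus strand of chromosome 11 (69664371 to 69666062). It had 6.21, 5.02 and 6.79 CPM in HPC, 27.5, 27.8 and 27.6 in early LP, while median LP had 34.7, 34.8 and 35.8. These groups too are separate, with means of 6.01 ± 0.899, 27.6 ± 0.128 and 35.1 ± 0.569. Its differences from HPC were 2.20 (SE 0.10, adjusted p = 1.97e-09) and 2.54 (SE 0.10, adjusted p = 5.25e-10). Of the 32 genes of the lysosome and endosome list, 30 were tested. Early LP had 20 of them higher and 4 lower, and median LP 21 higher and 3 lower, with medians of 0.87 and 0.80 against -0.04 over all genes. Lamp1, the main lysosomal membrane glycoprotein, had 286, 792 and 818 CPM in HPC, early LP and median LP (1.47 and 1.52). Grn, the precursor of granulins, rose by 2.55 and 2.49 from 102 CPM, and Ctsz, the protease cathepsin Z, by 1.21 and 1.23 from 121 CPM. Ctsd, the protease cathepsin D, had 263, 300.4 and 310 CPM, a difference of 0.19 in early LP (adjusted p = 0.060) and of 0.24 in median LP (adjusted p = 0.024). Cd63, a tetraspanin of late endosomes, Gaa, acid alpha-glucosidase, and Lgmn, the protease legumain (-2.27 and -1.13), were lower in both comparisons, and Ctsl, cathepsin L, in early LP as well.

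Mpeg1 encodes perforin-2, a pore-forming protein of the perforin family that macrophages direct at engulfed bacteria. It lies in 2 exons on the plus strand of chromosome 19 (12460779 to 12465285). Its level was 145, 108 and 108 CPM in HPC, 218, 222 and 207 in the early LP libraries and 278, 289.7 and 301 in those of median LP. No library of either LP group fell to the HPC range, and the rise was the smallest of the 5 genes that were higher in both. The differences from HPC were 0.84 (SE 0.11, adjusted p = 1.78e-05) and 1.27 (SE 0.11, adjusted p = 5.18e-07). Of the 9 perforin-like and cytolytic genes listed, 6 are in the table and only Gzmb was tested, as lower in both. Prf1, the perforin of cytotoxic lymphocytes, was at 0 in all early LP libraries and at 0.261 CPM or less in every other library.

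Cd14 encodes the lipopolysaccharide co-receptor that hands its ligand to Toll-like receptor 4, and lies on the minus strand of chromosome 18 (36725067 to 36726654). The HPC libraries had 8.33, 5.26 and 7.56 CPM, early LP 18.9, 16.9 and 20.9, and median LP 29.5, 24.8 and 28.1. The 3 groups did not overlap, with HPC lowest. Cd14 was higher by 1.42 in early LP (SE 0.15, 2.67-fold, 95% interval 2.13 to 3.36, adjusted p = 4.12e-06) and by 1.96 in median LP (SE 0.15, 3.88-fold, 3.09 to 4.88, adjusted p = 2.11e-07).

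Ly86 encodes MD-1, the secreted partner that holds the receptor CD180 (also called RP105) at the cell surface, where the pair dampens Toll-like receptor 4 signalling in myeloid cells. It lies on the plus strand of chromosome 13 (37345345 to 37419036). Its level was 18.9, 17.3 and 19.7 CPM in HPC, 0.462, 0.943 and 0.720 for early LP and 0.385, 0.479 and 0.443 for median LP. Every LP library was under 1 CPM, and the fall was the largest change in either direction among the 9 genes. The log2 difference of Ly86 was -4.69 in early LP (SE 0.18, 25.7-fold lower, adjusted p = 5.22e-10) and -5.42 in median LP (SE 0.20, 42.7-fold lower, adjusted p = 3.00e-10). The receptor Cd180 itself had 10.2, 8.53 and 10.6 CPM in HPC, 0.718, 0.689 and 0.463 in early LP, while median LP had 0.578, 0.827 and 0.403. Its differences were -4.0 (SE 0.23) and -4.01 (SE 0.23), so both subunits of this receptor complex were low in every LP library.

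The activating complex looked different. Tlr4, the lipopolysaccharide receptor, had 11.7, 11.9 and 7.60 CPM in HPC, 96.3, 82.4 and 84.8 in the early LP libraries and 116, 119 and 117 in those of median LP, differences of 3.08 (SE 0.14) and 3.50 (SE 0.14). Ly96, which encodes MD-2, the partner of Tlr4 that binds lipopolysaccharide, had means of 0.650, 1.06 and 0.507 CPM and was not called in either comparison (adjusted p = 0.074 and 0.382). Of the 25 genes of the Toll-like receptor list, 24 were tested, with 17 higher and 3 lower in early LP and 16 higher and 3 lower in median LP. The lower genes were Cd180, Irak2, a kinase of the pathway, and Ticam2, an adaptor of Tlr4. The medians of 0.61 and 0.42 stand beside -0.04 over all genes. Myd88, the adaptor shared by most receptors of the family, rose from 41.8 to 76.0 and 76.5 CPM (0.86 and 0.87), and Hsp90b1, a chaperone that folds them, from 1010.03 to 2237 and 2367 CPM.

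**Figure D2:**
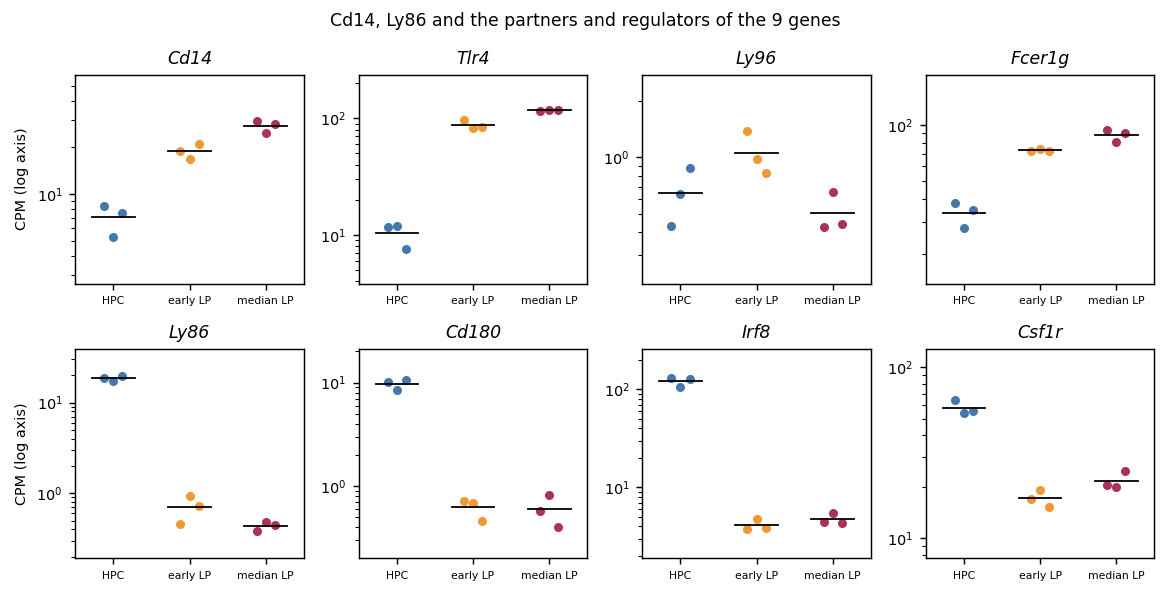
TMM-scaled CPM in every library, on log axes with a line at each group's mean, of Cd14 and Ly86 and of 6 genes whose products work with or regulate those of the 9 genes. Cd14, Tlr4 and Fcer1g are higher in all LP libraries than in all HPC libraries, Ly86, Cd180, Irf8 and Csf1r are lower, and Ly96 overlaps.

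Ms4a6c encodes a tetraspan membrane protein of the MS4A family that is used as a marker of mouse monocytes and their precursors. It lies on the plus strand of chromosome 19 (11469368 to 11482196) in 7 exons. The HPC libraries had 54.3, 40.3 and 44.1 CPM, early LP 11.4, 14.7 and 8.79, and median LP 6.05, 8.27 and 8.67. All LP libraries were lower than all HPC libraries. Its difference was -1.99 in early LP (SE 0.18, 3.97-fold lower, adjusted p = 1.09e-06) and -2.596 in median LP (SE 0.19, 6.04-fold lower, adjusted p = 1.42e-07). Its reads are partly shared: 56.9% of its 50-base words also occur in transcripts of other genes in the reference, mainly BE692007 on the opposite strand of its locus (55.4%) and Ms4a6b (6.08%). How such reads were assigned is not stated in the labels, so the level is uncertain. Of the 15 listed genes of the family, 9 are in the table and 5 were tested. Ms4a3, a gene of granulocyte and monocyte progenitors, had 324, 989.6 and 929 CPM and was the only tested gene of the family that rose (1.61 and 1.52). Ms4a2, the beta chain of the high-affinity IgE receptor of mast cells and basophils, Ms4a4c and Ms4a6b fell in both, Ms4a6b from 5.89 to 2.06 and 1.19 CPM. Ms4a6d had 0.720, 0.757 and 1.28 CPM and was not called (adjusted p = 0.866 and 0.051).

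Most basophil, mast cell and eosinophil markers, a list that itself holds Ms4a2, fell as well. Their summed level was 349 to 467 CPM in HPC, 62.4 to 82.5 for early LP and 44.1 to 52.8 for median LP, with 7 and 6 of the 9 tested lower, 1 higher in each, and Tpsb2 at 0 in every LP library. Their part in these results was not tested.

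Fcgr1 encodes CD64, the high-affinity receptor for IgG that separates macrophages from dendritic cells, and lies on the minus strand of chromosome 3 (96282909 to 96293969). It was close to absent: the recovered fragments were 5, 3 and 5 in HPC, 8, 14 and 3 in early LP, while median LP had 5, 12 and 20. In CPM these libraries stood at 0.196, 0.120 and 0.176, then at 0.410, 0.508 and 0.154, and at 0.193, 0.522 and 0.805, and the groups overlapped. Only 1 early LP and 2 median LP libraries, and no HPC library, reached the filter's minimum of 0.412 CPM before TMM scaling, so Fcgr1 was tested only because of LP libraries. The difference from HPC was 0.97 in early LP (SE 0.60, adjusted p = 0.162) and 1.48 in median LP (SE 0.56, 95% interval of the fold 1.19 to 6.55, adjusted p = 0.0317). The latter call ended when any HPC library, median LP 2 or median LP 3 was left out, with adjusted p up to 0.158. Ratios of summed fragments were 2.02 (95% counting interval 0.996 to 4.31) and 2.78 (1.44 to 5.69), which cover counting error only.

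Its signalling partner and a pair of low-affinity receptors rose. Fcer1g, the gamma chain through which Fcgr1 and Fcgr3 signal, had means of 33.5, 73.1 and 88.3 CPM (1.12, SE 0.10, and 1.40, SE 0.10). Fcgr3, an activating receptor, rose from 31.9 to 121 and 127 CPM (1.93 and 1.998), and Fcgr2b, the inhibitory receptor, from 49.6 to 136 and 155 CPM (1.46 and 1.64). Of the 15 genes of the Fc receptor list 14 were tested, with 6 higher and 2 lower in early LP and 6 higher and 3 lower in median LP. Over all genes, 35.3% were higher and 37.9% lower in early LP, and 36% and 37.7% in median LP. The share of higher genes in the list is thus not far above that of all genes. Its medians of 0.32 and 0.21 stand beside -0.04 over all genes. Syk, a kinase of the pathway, was among the lower genes of the list in both comparisons, and Fcgr4, an activating receptor, was among them in median LP.

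Klf4 encodes a zinc finger transcription factor needed for the Ly6C-high monocytes of mice, and lies on the minus strand of chromosome 4 (55527137 to 55532475). Its level was 13.6, 5.62 and 9.46 CPM in HPC, 9.08, 10.1 and 10.9 in the early LP libraries and 10.3, 9.40 and 8.74 in those of median LP. The widest spread was among the HPC libraries, and it contained all LP libraries. The difference was 0.07 in early LP (SE 0.24, fold 1.05, 95% interval 0.735 to 1.51, adjusted p = 0.790) and -0.01 in median LP (SE 0.24, fold 0.994, 0.693 to 1.43, adjusted p = 0.977). The sign of these values turns when single libraries are left out, so no direction is given.

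Other transcription factors of the lineage did differ. Spi1, which encodes PU.1 and is listed under its older symbol Sfpi1, had 93.0, 266 and 264 CPM (1.52, SE 0.10, and 1.51, SE 0.10). Irf8, the factor that directs progenitors to monocytes and dendritic cells, had 129.7, 105 and 128 CPM in HPC, 3.80, 4.79 and 3.80 for early LP and 4.47, 5.44 and 4.31 for median LP. Its differences were -4.88 (SE 0.13) and -4.67 (SE 0.12), and every LP library was far below the lowest HPC library. Csf1r, the receptor for macrophage colony-stimulating factor, had 64.3, 53.8 and 55.7 CPM in HPC, 17.0, 19.1 and 15.3 in early LP, while median LP had 20.3, 20.02 and 24.6, with differences of -1.76 (SE 0.11) and -1.42 (SE 0.11). Of the 28 listed factors 24 were tested, with 14 higher and 6 lower in early LP and 14 higher and 5 lower in median LP. Their medians were 0.55 and 0.60, against -0.04 over all genes. The list is not specific to monocytes: Gfi1 and Cebpe are also on the neutrophil lineage list, and both were higher in early LP. Gfi1 had 106, 343 and 358 CPM in HPC, early LP and median LP (1.69 and 1.75), and Cebpe differed by 0.28 in early LP. Cebpa and Cebpb, factors of the shared granulocyte and monocyte branch, rose by 1.39 and 2.02 in early LP and by 1.61 and 2.21 in median LP. Irf5, an interferon regulatory factor of inflammatory macrophages, was lower in both (-2.99 and -3.10). Fos, an AP-1 subunit, was lower as well (-0.82 and -2.86), and Fos and Jun were also lower in median than in early LP (-2.04 and -2.27).

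**Figure D3:**
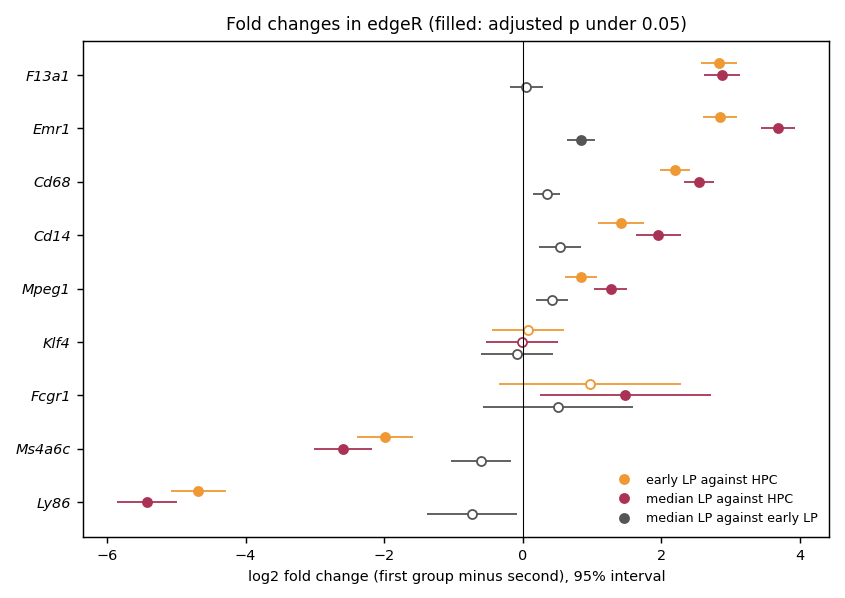
Log2 fold change of each of the 9 genes, with 95% interval, for early LP against HPC, median LP against HPC and median LP against early LP, with filled points for adjusted p under 0.05. Intervals of the comparisons with HPC lie above 0 for Emr1, F13a1, Cd68, Cd14 and Mpeg1 and below 0 for Ly86 and Ms4a6c, and those between the LP groups are closer to 0.

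Between the LP groups, Emr1 was the only one of the 9 genes that was called, as higher in median LP by 0.84 (SE 0.09, 1.79-fold, 95% interval 1.55 to 2.07, adjusted p = 0.00116). Over all genes 2.48% were called, 1.48% higher and 0.997% lower. The median difference was 0.35 over the 9 genes and 0.00 over all genes. Groups did not overlap for 5 of the 9 genes, Emr1, Cd14, Cd68, Mpeg1 and Ms4a6c, against 26.1% of all genes. The 4 uncalled ones among these differed by 0.54 for Cd14 (SE 0.14, adjusted p = 0.0708), 0.42 for Mpeg1 (SE 0.11, adjusted p = 0.0633), 0.35 for Cd68 (SE 0.09, adjusted p = 0.0696) and -0.61 for Ms4a6c (SE 0.20, adjusted p = 0.146). Cd14, Mpeg1 and Cd68 pass the threshold in some other fits, among them the fit with only the LP libraries (adjusted p = 0.0141, 0.00350 and 0.0109). F13a1 differed by 0.05 (SE 0.11, 95% interval of the fold 0.877 to 1.23), Ly86 by -0.73 (SE 0.30, adjusted p = 0.246), Klf4 by -0.08 (SE 0.24) and Fcgr1 by 0.51 (SE 0.49), and their groups overlapped.

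Per transcript length, the order of the 9 genes differed between HPC and LP. This used FPKM, in which fragments are divided by transcript length in kilobases and by library size. In HPC, F13a1 was highest at 36.1 ± 4.29 FPKM, followed by Ms4a6c (27.8 ± 3.78), Mpeg1 (23.0 ± 3.62), Ly86 (19.5 ± 1.65), Cd68 (6.49 ± 1.09), Cd14 (5.28 ± 1.202), Klf4 (2.998 ± 1.21), Emr1 (1.31 ± 0.167) and Fcgr1 (0.0540 ± 0.0131). The libraries of neighbours in that order overlapped for Ms4a6c and Mpeg1, Mpeg1 and Ly86, Cd68 and Cd14, and Cd14 and Klf4. With only the most abundant transcript of each gene in place of the sum, 3 of the 9 genes took another place in HPC.

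In early LP the order was F13a1 (249.5 ± 11.1 FPKM), Mpeg1 (39.7 ± 1.47), Cd68 (29.2 ± 0.900), Cd14 (13.6 ± 1.48), Emr1 (9.002 ± 0.584), Ms4a6c (6.47 ± 1.53), Klf4 (3.09 ± 0.369), Ly86 (0.725 ± 0.263) and Fcgr1 (0.115 ± 0.0590), and no neighbours overlapped. Median LP kept this order, with F13a1 at 251 ± 30.7, Mpeg1 at 51.8 ± 1.201, Cd68 at 36.4 ± 0.937, Cd14 at 19.7 ± 2.45, Emr1 at 15.7 ± 1.55, Ms4a6c at 4.07 ± 1.08, Klf4 at 2.90 ± 0.380, Ly86 at 0.432 ± 0.0385 and Fcgr1 at 0.157 ± 0.0918 FPKM. There Cd14 overlapped with Emr1, and Ms4a6c with Klf4. By mean FPKM among the 16537 genes, F13a1 held rank 2195 in HPC, 300 in the early LP libraries and 281 in those of median LP, while Ly86 held rank 3972, 10777 and 11207.

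**Figure D4:**
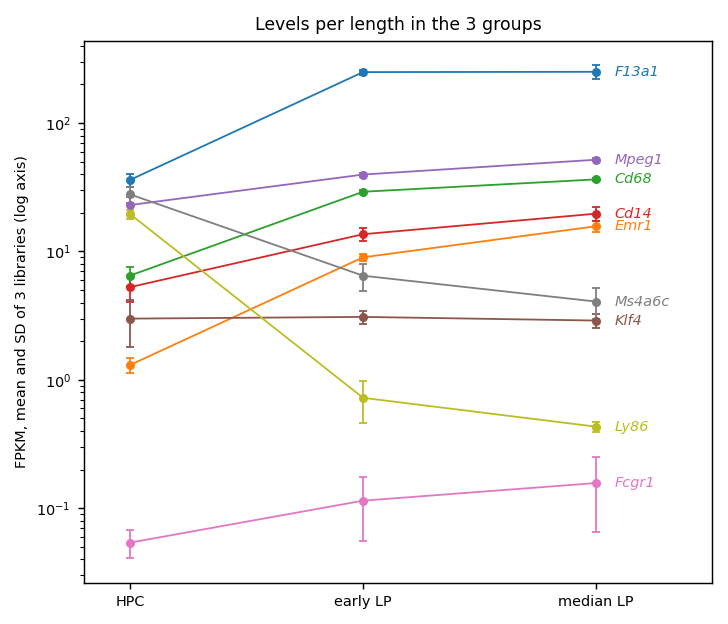
Mean FPKM of the 9 genes on a log axis in HPC, early LP and median LP, with bars for the SD of 3 libraries and lines joining the groups of a gene. Ms4a6c and Ly86 lie beside Mpeg1 in HPC and below Emr1 in both LP groups, and Fcgr1 is lowest in every group.

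Wider lists of the lineage, from which the 9 genes were left out, also held genes of both directions. Of 32 monocyte surface, antigen and effector genes, all tested, 22 were higher and 6 lower in early LP and 22 higher and 4 lower in median LP, with medians of 1.25 and 1.54 against -0.04 over all genes. Ly6c2, a surface antigen of classical monocytes that myeloid precursors also carry, had 509, 6394 and 5824 CPM (3.65 and 3.52), and Lyz2, lysozyme, had 349, 1118 and 1456 CPM (1.68 and 2.06). Tyrobp, the adaptor DAP12, rose by 1.53 and 1.73 from 52.0 CPM. Ccr2, the receptor that draws monocytes out of the marrow, rose by 1.24 and 1.56 from 22.8 CPM, whereas Cx3cr1, the fractalkine receptor of patrolling monocytes, fell from 6.74 to 0.948 and 1.42 CPM (-2.80 and -2.22). Ctss, the protease cathepsin S, and Ccl9, a chemokine, were the remaining listed genes that were lower in both, beside Csf1r. Between the LP groups, Ccl6, a chemokine (0.71), Lilrb4, an inhibitory receptor (0.97), and Trem1, an activating receptor (0.92), were higher in median LP and none of the 32 was lower.

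Of 27 tissue macrophage genes, only 17 had enough counts to be tested. Early LP had 9 of them higher and 6 lower, and median LP 9 higher and 5 lower, with medians of 0.91 and 0.96 against -0.04 over all genes. Siglec1, C1qc, Spic, Marco, Mertk, Timd4, Cd5l and Vsig4, which mark resident macrophages, were among those left out, and Vsig4 was at 0 in all HPC and all median LP libraries. Trf, transferrin, rose from 46.4 to 367 and 370.3 CPM (2.98 and 2.99), Slc40a1, the iron exporter ferroportin, from 91.9 to 209 and 199.9 CPM (1.19 and 1.12), and Vcam1, an adhesion molecule, from 29.3 to 55.0 and 56.8 CPM (0.91 and 0.96). Apoe, apolipoprotein E, fell from 169 to 8.23 and 10.4 CPM (-4.36 and -4.02), and Cd163, the haemoglobin scavenger receptor, Axl, a receptor for dying cells, and Lpl, lipoprotein lipase, were lower in both as well. Lpl and Mrc1, the mannose receptor, were higher in median than in early LP, Lpl by 1.65 and Mrc1 by 0.64 (SE 0.12, adjusted p = 0.0231).

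**Figure D5:**
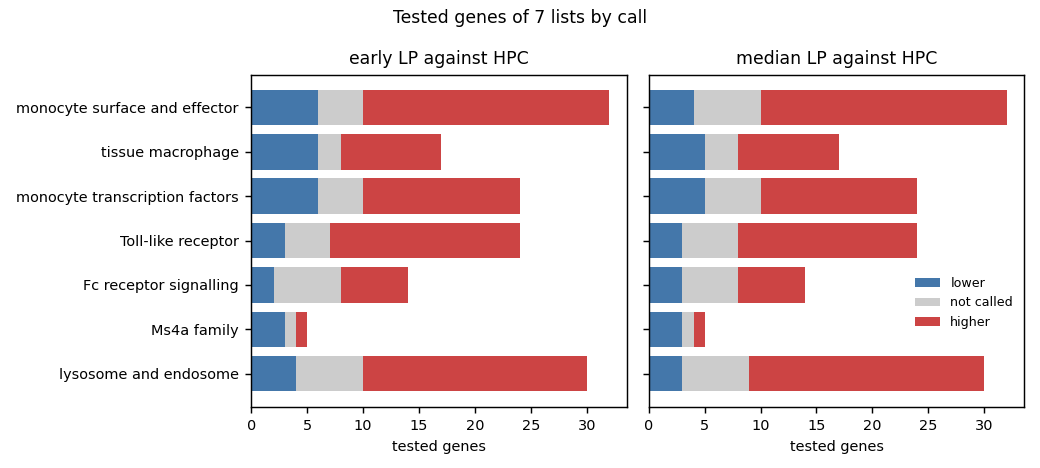
Number of tested genes of 7 lists, other than the 9 genes, that were lower, not called or higher in early and in median LP against HPC, as stacked bars. Each list has genes called in both directions, and only in the Ms4a family do lower genes (3) outnumber higher ones (1).

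Markers of other cell types also differed between HPC and LP, in both directions. Counts for these cell types stand beside the shares over all genes. Those shares were 35.3% higher and 37.9% lower in early LP, and 36% and 37.7% in median LP. Summed neutrophil lineage markers were 16146 to 20106 CPM in HPC, 44885 to 49708 for early LP and 40690 to 42909 for median LP, the largest part from Mpo, myeloperoxidase (9094, 21887 and 16903 CPM). Of 19 tested, 10 were higher and 3 lower in early LP and 9 higher and 6 lower in median LP. Erythroid markers were 4026 to 4610 CPM in HPC, 18.2 to 24.9 in early LP, while median LP had 149.7 to 223, with all 11 tested lower in early LP, and 9 lower and 2 higher in median LP. The sum in median LP was mostly Hba-a1, an alpha-globin gene (26.3, 3.76 and 156 CPM), whereas Car1 had 1577, 6.08 and 1.66 CPM. Between the LP groups, 3 of the 11 erythroid genes were higher in median LP, 1 was lower and 7 were not called. Stem and multipotent progenitor markers were 2056 to 2120 CPM in HPC, 779 to 792 in the early LP libraries and 691 to 796 in those of median LP, with 14 and 13 of 15 lower. In LP this sum was mostly Myb, a transcription factor (917, 520 and 498 CPM), and Kit (437, 251 and 247 CPM). The typical gene of the list fell far more than the sum, with median log2 differences of -6.28 in early LP and -7.35 in median LP. Dendritic cell markers were 131 to 178 CPM in HPC, 67.8 to 81.4 for early LP and 82.4 to 83.2 for median LP, with 6 lower and 2 higher of 8 in early LP, and 5 lower and 3 higher in median LP. Most of the LP sum came from Bst2, an antiviral membrane protein of plasmacytoid dendritic cells (34.6, 68.1 and 72.3 CPM), which rose. Batf3 was at 0 in all early LP libraries.

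B cell markers summed to 69.0 to 90.2, 204 to 227 and 161 to 180.2 CPM in HPC, early LP and median LP, most of it in LP from Igll1, a surrogate light chain (0.737, 207 and 161 CPM). Of 7 tested, 2 were higher and 4 lower in early LP and 3 higher and 3 lower in median LP, with Pax5 at 0 in all HPC and all early LP libraries and Blnk and Rag1 at 0 in early LP. T and NK cell markers summed to 146 to 164, 150.4 to 166 and 114 to 135 CPM, with 1 and 3 of 4 lower and 0 and 1 higher. In every group nearly all of this sum was Nkg7 (140, 152 and 116 CPM). The other tested genes, Lck, Cd3d and Cd4, had group means of 8.21 CPM or less. Cd3e, Cd8a and Gzma were at 0 in HPC and Cd3g and Cd8a in early LP. Stromal and endothelial markers summed to 84.0 to 100.2, 245 to 296 and 199 to 281 CPM, in LP mainly from Fn1, fibronectin (4.84, 202 and 170.4 CPM), with 4 of 7 higher and 3 lower in each comparison. The part of any of these cell types in the results was not tested.

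The genes whose pattern over the 9 libraries was most like each of the 9 were ranked by the root mean square difference of centred log2 values, with no test. They were Rhou (0.0797) and Mrgpra2a (0.0926) for F13a1, Trem1 (0.166) and Nrbp2 (0.195) for Emr1, Sc4mol (0.0670) and Cass4 (0.0841) for Cd68, and Insig1 (0.132) and Cyp51 (0.139) for Cd14. Mpeg1 was closest to Rassf4 (0.105) and to Cybb (0.110), which encodes a subunit of the phagocyte oxidase. For the genes that fell, the nearest were Klk8 (0.111) and Zfp385a (0.114) for Ly86 and Itgb3 (0.174) and Rnf144a (0.229) for Ms4a6c. Klf4 was closest to Lcn2 (0.170) and Ctsh (0.174). The added 0.5 CPM flattens levels near or below it, such as those of Ly86 in LP and of Fcgr1 in every group, and no likeness is given for Fcgr1.

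Opposite changes also occurred at short distance along a chromosome. F13a1 and Ly86 are neighbours in the table on chromosome 13, 295.1 kb apart, and F13a1 was 7.11-fold higher in early LP where Ly86 was 25.7-fold lower. Ms4a6c and Mpeg1 lie 978.6 kb apart on chromosome 19 and also changed in opposite directions. Of the 21 other table genes in that interval and 200 kb on each side, 14 were tested, and in each comparison with HPC 7 were higher, 4 lower and 3 not called. Among the higher ones, Glyat was at 0 CPM in HPC. Of all genes tested, 35.3% were higher and 37.9% lower in early LP, and 36% and 37.7% in median LP. Both directions are thus common among all genes, and opposite calls of genes on the same chromosome are not unusual.

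The 250 bases before the start site of these neighbours and of Cd68 are printed so that promoters of genes that changed in opposite directions can be set side by side. They come from the RefSeq promoter table for GRCm38.p6, in which 7 of the 9 genes were matched and Emr1 and Cd14 were not. They read 5′ to 3′ on the gene's strand, and capitals mark matches on either strand to GAGGAA (PU.1-like), TTNCGNAA (C/EBP-like), CCNCNCCC (KLF-like), a repeat of GAAA with a spacer of 2 bases (IRF-like), TGANTCA (AP-1-like) or AGGTCA (a retinoid receptor half-site).
F13a1, chr13:37050245-37050494, minus strand: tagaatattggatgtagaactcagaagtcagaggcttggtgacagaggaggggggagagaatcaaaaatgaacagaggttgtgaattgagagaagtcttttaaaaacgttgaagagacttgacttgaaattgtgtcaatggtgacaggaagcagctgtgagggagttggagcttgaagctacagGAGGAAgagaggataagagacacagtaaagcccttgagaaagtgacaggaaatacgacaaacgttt
Ly86, chr13:37345095-37345344, plus strand: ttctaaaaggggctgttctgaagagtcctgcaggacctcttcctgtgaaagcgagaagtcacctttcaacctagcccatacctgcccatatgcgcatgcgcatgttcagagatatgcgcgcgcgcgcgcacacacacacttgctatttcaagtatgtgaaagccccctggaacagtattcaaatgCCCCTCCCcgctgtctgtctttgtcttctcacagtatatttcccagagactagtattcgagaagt
Cd68, chr11:69666171-69666420, minus strand: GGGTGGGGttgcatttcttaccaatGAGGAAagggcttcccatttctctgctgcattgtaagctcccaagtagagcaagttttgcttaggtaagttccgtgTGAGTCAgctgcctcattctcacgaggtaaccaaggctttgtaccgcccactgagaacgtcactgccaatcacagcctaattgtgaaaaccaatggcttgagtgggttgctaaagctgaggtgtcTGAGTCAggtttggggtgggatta

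GAGGAA was found in the windows of F13a1 (66 bases before the start), Fcgr1 (55) and Cd68 (225), and in 23.3% of all 32851 promoters of this length. TGANTCA was found at 149 and 24 bases before the start of Cd68 and in 6.75% of all promoters. CCNCNCCC, a common word found in 45.9% of promoters, had 9 matches in Klf4, 6 overlapping ones in a run of C in Ms4a6c, and 1 each in Ly86 and Cd68. None of the 7 windows held TTNCGNAA, the GAAA repeat or AGGTCA, which are in 2.04%, 2.98% and 14.0% of all promoters. Mpeg1 held none of the 6 motifs. TTNNNNAA, a looser C/EBP-like form that is not in capitals, is in 57.7% of all promoters. The start used by RefSeq lay 108 bases from the deposited start for Cd68 and 9 for Mpeg1. A match is a run of letters, and no measurement of binding was made.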

How the data were processed

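RNA from 9 libraries was measured. Total RNA, isolated with Trizol, went into Illumina TruSeq libraries, per the labels' protocols. The submitters' processing notes name TopHat2 2.0.6 and mm10. Which program, annotation and strand setting produced the values is not given in the sources used here. The authors deposited, per the file headers, FPKM and an estimated count per transcript and library. Low values of the deposited estimated counts moved in a step of 0.867 to 1.23 per library, and 89.6 to 91.3% of low values (up to 50 steps) were whole within 0.05 after division by it. The step gave the recovered fragments and the depth.

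Transcripts were summed by gene symbol and rounded to whole numbers. All 9 libraries entered 1 edgeR fit (edgeR 4.0.16, R 4.3.3; quasi-likelihood test, TMM, filterByExpr by group, no covariate, two-sided), which tested 12837 genes and left out 3700. The fit was also run on simulated counts in which only a small part of the genes differed between groups. That run does not cover data in which most genes are called, as in the comparisons with HPC. FPKM were used only to compare genes with each other. Coordinates are the deposited ones on mm10, counted from 1. Alternatives were DESeq2 1.42.0, limma 3.58.1 on log2 FPKM, other scalings and filters, recovered fragments, 2-group fits, a replicate block and leaving out each library; a covariate for the difference between long and short transcripts was added after the data had been seen.

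The 9 genes and the lists were chosen with earlier results of these data known. The text names all 9 genes, up to 4 tested genes of each list with the highest mean FPKM, 13 partners of the 9 genes, and the 2 genes most like each (Fcgr1 was left out after its values had been seen) by pattern with at least 5 CPM in their highest group, on log2(CPM + 0.5). Other names were added after their values had been seen: the markers Cd34, Kit, Ccr2 and Cx3cr1, genes of a list that went against most of it or were at 0 or left out, and those that differed between the LP groups. Some listed genes are not reported here by name. Spi1 and Pirb were matched to Sfpi1 and Lilrb3 by gene identifier. F13a1 overlaps antisense genes in the annotation, and without a stated use of strand their reads cannot be told apart.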

Additional observations from a re-analysis of the deposited data

How the results depend on the processing

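Each log2 difference and each number of called genes was recomputed under 20 alternatives, except that Fcgr1 against HPC had 19. The order by FPKM was recomputed only with the most abundant transcript and with each library of a group left out. F13a1, Emr1, Cd68, Cd14, Mpeg1, Ly86 and Ms4a6c kept their direction and call against HPC in all 20. Klf4 had no stable direction. In median LP against HPC it was 0.026 with log2(FPKM + 0.1), 0.0054 with log2(FPKM + 1) with or without a filter, and -0.26 to 0.35 with a library left out; in early LP it was -0.17 to 0.42, the lowest value without HPC 2. Fcgr1 in median LP against HPC was not called with log2(FPKM + 0.1) (0.68, adjusted p = 0.0539) or with log2(FPKM + 1) with or without a filter (0.13, adjusted p = 0.108 and 0.106). With a library left out it was 1.01 to 1.87 (adjusted p = 0.0509 without HPC 1, 0.0868 without HPC 2, 0.0570 without HPC 3, 0.0694 without median LP 2 and 0.158 without median LP 3).

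Between the LP groups, calls varied most. Against 190 genes higher and 128 lower, DESeq2 called 325 and 251, the fit of these groups alone 362 and 243, the covariate for transcript length 745 and 585, log2(FPKM + 1) 121 higher, and the same with no filter 106 and 82. Leaving out a library gave 66 to 391 higher and 39 to 296 lower, fewest without early LP 2 and most without HPC 3. Of the 9 genes, 4 were higher with DESeq2 (and 1 lower), with these groups alone and with the length covariate, and 1 to 4 were higher and 0 lower with a library left out. Cd14 was called with DESeq2 (0.54), these groups alone (0.55) and the length covariate (0.54), and without HPC 2 or HPC 3 (0.47 to 0.61 over the libraries left out). Mpeg1 was called with DESeq2 (0.42), these groups alone (0.43) and the length covariate (0.42), and without HPC 1 or HPC 3 (0.39 to 0.45). Cd68 was called with DESeq2 (0.34), these groups alone (0.35) and the length covariate (0.35), and without HPC 2 or HPC 3 (0.33 to 0.35). Ms4a6c was called with DESeq2 only (-0.61, adjusted p = 0.0402). F13a1 was -0.057 to 0.13 with a library left out, the lowest without median LP 3. Emr1 was called in all 20 (0.74 to 0.90). The cause of these changes was not tested.

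With only the most abundant transcript, 3 of the 9 genes changed place in the order of FPKM in HPC. Of 1680 values of the named partner and list genes, 1639 kept direction and call, 30 lost the call, 10 gained it and 1 changed sign, Ms4a6d in early LP against HPC without HPC 2 (-0.17). Deviations from the group mean had correlations of -0.33 to 0.19 between libraries with the same replicate number. Between libraries with different numbers they were -0.35 to 0.32, so no pairing was seen. With 3 libraries per group this check cannot exclude pairing. With a replicate block, 62 genes were lower and 130 higher between the LP groups, 2 of the 9 genes were higher there (Emr1 and Cd14, the latter by 0.54), and Klf4 in median LP against HPC was 0.028. Levels under 1 CPM, such as those of Fcgr1 and of Ly86 in LP, rest on few fragments.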
